A study of Mus musculus with 38 samples.

Results

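Pitx1, Cited1, Eva1a and Chst15 are 4 genes that the study lists among its primitive endoderm (PrE) genes. They were found by symbol in every table: as 4 of 35976 genes in an FPKM table of 17 libraries, 4 of 37108 genes in an FPKM table of 8 libraries, and 4 of 20695 genes in a single-cell table of UMI counts. FPKM is the number of fragments per length of transcript and depth of library, and a UMI is a molecular tag that counts each captured RNA once. Peaks at the 4 loci were taken from 9 ATAC-seq lists (open chromatin) and 4 CUT&Tag lists (sites bound by an antibody's target).

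All cells began as mouse embryonic fibroblasts (MEFs) of embryonic day 13.5, from crosses of OG2 mice, which carry an Oct4-GFP reporter, with 129S4/SvJaeJ mice, and all reprogramming was done in iCD3 medium. The first experiment used retroviruses for Jdp2, Glis1, Esrrb and Sall4 (JGES) and followed cells without BMP4 (BMP4-) or with 10 ng/ml BMP4 (BMP4+) at days 1, 3, 5 and 7, with a shared library at day 0. That library held Sall4 RNA at 650 FPKM, and the labels do not say whether it was collected after infection. The factor set experiment compared JGE, JGES, JGEO and JGESO at day 7 with and without BMP4, where O is Oct4 and JGE and JGEO were given no Sall4 virus. Sall4 RNA was 2.09 and 6.23 FPKM in JGE without and with BMP4, 28.9 and 30.3 in JGEO, 273 and 190 in JGES and 174 and 213 in JGESO, so JGEO was not free of it. Its JGES libraries are the day 7 libraries of the time course, and the labels do not say whether the other 6 were made with them. The third experiment infected MEFs with SALL4 alone and without BMP4, either the wild type (WT) or delN12, which lacks the N-terminal 12 amino acids that recruit the NuRD repressor complex, and sampled days 1, 5, 9 and 11 for RNA and ATAC-seq and day 6 for CUT&Tag. The factors were driven by a retroviral promoter in mixed cultures, and each condition had 1 sample. No difference below could therefore be tested against replicates. In bulk RNA a gene was called higher or lower where log2(FPKM + 1) differed by at least 1, and the share of all genes past that line is given beside each count.

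PrE is the layer of the blastocyst that faces the cavity and later forms the yolk sac. It is set by the transcription factors Gata6, Gata4 and Sox17, and its cells go on to make parietal endoderm, which secretes a thick basement membrane, or visceral endoderm, which takes up nutrients. Of the 4 genes, Pitx1 encodes a paired-type homeodomain factor best known from hindlimb and pituitary, and Cited1 a nuclear co-activator that binds CBP and p300 without touching DNA. Eva1a (also Tmem166) encodes a membrane protein of the endoplasmic reticulum and lysosome that acts in autophagy. Chst15 encodes the Golgi enzyme that adds a second sulfate to chondroitin sulfate A and so makes chondroitin sulfate E.

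In mm10 with GENCODE vM21 annotation, Pitx1 (ENSMUSG00000021506.7) lies on the minus strand at chr13:55825051-55836192, and Cited1 (ENSMUSG00000051159.16) on the minus strand at chrX:102247381-102252181. Eva1a (ENSMUSG00000035104.14) lies on the plus strand at chr6:82041043-82093099, and Chst15 (ENSMUSG00000030930.14) on the minus strand at chr7:132235780-132317228. The genes differ in size, from 4.80 kb for Cited1 and 11.1 kb for Pitx1 to 52.1 kb for Eva1a and 81.4 kb for Chst15. Chst15 sits inside an intron of a long transcript model of Fgfr2, and whether the FPKM used strand is not given in the sources used here. The sequences below are the Cited1 promoter, shown because it was open in every ATAC-seq list, and 5 open sites whose peaks differed between MEFs, WT and delN12 or that had no peak in MEFs. The first is 250 bases before the RefSeq start of Cited1 in GRCm38.p6 (mm10), chrX:102252182-102252431, and each other is 300 bases of the same build centred on an ATAC-seq site. All are on the strand of their gene, 5′ to 3′. Capitals mark matches on either strand to GATAA (a motif of factors such as Gata4), TGANTCA (a motif of AP-1) and TAATCC (a motif of PITX-type homeodomains), and in the promoter also to TATAAA (a core promoter element).
Cited1 promoter: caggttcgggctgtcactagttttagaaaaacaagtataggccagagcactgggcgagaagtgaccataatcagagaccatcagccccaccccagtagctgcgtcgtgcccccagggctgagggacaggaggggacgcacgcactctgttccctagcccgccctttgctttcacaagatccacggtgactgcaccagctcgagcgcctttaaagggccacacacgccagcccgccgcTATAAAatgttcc
Pitx1 site past the 3′ end: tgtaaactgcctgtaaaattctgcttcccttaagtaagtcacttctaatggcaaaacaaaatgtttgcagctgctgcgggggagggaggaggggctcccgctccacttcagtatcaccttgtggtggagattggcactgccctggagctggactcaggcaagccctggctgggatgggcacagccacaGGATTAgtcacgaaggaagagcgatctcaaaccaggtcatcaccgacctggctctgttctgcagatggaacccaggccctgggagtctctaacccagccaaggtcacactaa
Eva1a site 11 kb upstream: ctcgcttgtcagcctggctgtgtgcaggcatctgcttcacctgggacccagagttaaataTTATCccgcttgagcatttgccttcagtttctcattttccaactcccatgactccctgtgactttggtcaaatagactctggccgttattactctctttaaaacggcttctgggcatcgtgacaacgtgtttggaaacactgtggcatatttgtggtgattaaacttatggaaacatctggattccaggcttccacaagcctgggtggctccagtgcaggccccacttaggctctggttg
Eva1a site 5 kb upstream: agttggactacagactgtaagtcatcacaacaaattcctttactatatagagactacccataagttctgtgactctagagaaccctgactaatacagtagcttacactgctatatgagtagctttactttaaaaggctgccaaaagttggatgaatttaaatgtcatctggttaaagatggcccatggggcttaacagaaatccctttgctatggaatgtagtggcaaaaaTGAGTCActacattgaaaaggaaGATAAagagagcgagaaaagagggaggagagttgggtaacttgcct
Eva1a site past the 3′ end: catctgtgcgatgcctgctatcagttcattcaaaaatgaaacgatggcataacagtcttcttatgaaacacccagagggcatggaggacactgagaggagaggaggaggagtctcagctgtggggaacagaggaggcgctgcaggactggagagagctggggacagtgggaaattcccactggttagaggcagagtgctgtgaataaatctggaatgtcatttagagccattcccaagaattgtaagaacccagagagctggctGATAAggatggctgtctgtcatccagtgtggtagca
Chst15 intron site: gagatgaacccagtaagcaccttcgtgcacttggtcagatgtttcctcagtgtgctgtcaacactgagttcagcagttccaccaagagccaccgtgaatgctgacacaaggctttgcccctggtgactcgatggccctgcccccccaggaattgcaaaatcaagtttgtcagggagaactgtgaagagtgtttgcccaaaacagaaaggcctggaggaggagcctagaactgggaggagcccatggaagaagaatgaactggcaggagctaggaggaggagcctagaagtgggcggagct
The Pitx1 site is chr13:55824176-55824475, the Eva1a sites are chr6:82029914-82030213, chr6:82035766-82036065 and chr6:82111618-82111917, and the Chst15 site is chr7:132242895-132243194. GATAA stood in 3 of the 5 sites, all 3 at Eva1a, and in 30.1% of 300-base windows at all ATAC-seq sites. TGANTCA stood at 1 Eva1a site (32.0% of windows), and TAATCC at the Pitx1 site only (8.86% of windows). The Chst15 site held none of these, nor ACAAT (a SOX motif), CACCC (a KLF motif) or TATAAA. The core promoter element TATAAA stood in the Cited1 promoter at bases 238 to 243 of the run, and in 12.4% of RefSeq promoters of this length. The RefSeq table held 3 promoters for Cited1, 2 for Chst15, 1 for Eva1a and 0 for Pitx1. These matches describe letters and not bound sites.

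The libraries detected 12030 to 14166 genes at an FPKM of 1 or more in the table of 17 and 12730 to 14621 in the table of 8. The number of reads behind the FPKM is not given in the sources used here. The single-cell data held 20020 cells of 2 samples at day 7 of JGES reprogramming, with median UMIs per cell type from 11562 to 28906, and the samples shared 2 barcodes. Summed levels of 6-gene marker lists moved with the groups: in JGES libraries at day 7 the pluripotent list was 955.9 FPKM without BMP4 and 64.1 with it, and the fibroblast list 89.2 and 707.9. In a bulk sample fewer cells of a type and less RNA per cell cannot be told apart.

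In JGES cells Pitx1 and Cited1 were low through day 5 and far higher at day 7 with BMP4, whereas Eva1a and Chst15 differed less than 2-fold at day 7. Pitx1 was 7.82 FPKM at day 0. Without BMP4 it was 4.39, 3.11, 2.13 and 2.72 FPKM at days 1, 3, 5 and 7, and with BMP4 4.20, 2.95, 1.71 and 35.3 FPKM. The BMP4+ cultures thus held less Pitx1 than the day 0 library through day 5, and at day 7 held more of it than every other JGES library of the table. The difference at day 7 was 3.29 on the log2(FPKM + 1) scale, after -0.05, -0.06 and -0.21 at days 1, 3 and 5.

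Cited1 was 5.31 FPKM at day 0. Without BMP4 it was 3.85, 9.78, 7.67 and 5.52 FPKM at days 1, 3, 5 and 7, and with BMP4 3.22, 3.99, 5.06 and 74.8 FPKM. Cited1 therefore lay below the BMP4- library on each of the first 3 days sampled and above it on day 7. On the log2 scale the difference was -1.11 at day 3, past the 2-fold line downwards like 8.99% of 14426 genes (6.81% were called higher), and 3.54 at day 7. At day 3 the pluripotent list was 314 FPKM without and 80.1 with BMP4, and the fibroblast list 83.3 and 280. The part of these lists in the day 3 difference was not tested.

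Eva1a was 3.21 FPKM at day 0. Without BMP4 it stood at 10.5 FPKM on day 1 and then at 4.0, 1.90 and 2.87 FPKM, and with BMP4 at 2.64, 3.23, 1.23 and 5.47 FPKM. The day 1 library without BMP4 was the highest of the 9 JGES libraries, and the difference there was -1.65 on the log2 scale, a call that 5.72% of 13582 genes shared in that direction. Chst15 was 5.46 FPKM at day 0, 2.30, 3.11, 3.06 and 2.96 FPKM without BMP4 and 2.16, 1.39, 3.02 and 5.21 FPKM with it. With BMP4 at day 7 it was back at about its day 0 level, and none of its 4 differences passed the line on the log2(FPKM + 1) scale. The nearest was -0.79 at day 3, a ratio of 0.445 in FPKM. At day 5 0 of the 4 genes were called, beside 8.78% of genes higher and 13.2% lower.

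At day 7, then, 2 of the 4 genes were called higher with BMP4 and 0 lower, beside 10.3% of 15347 genes called higher and 13.8% lower. The log2 differences of the other 2 were 0.74 for Eva1a and 0.65 for Chst15, over a median shift of all genes of -0.14. From day 5 to day 7 in the BMP4+ cultures Pitx1 differed by 3.75, Cited1 by 3.65, Eva1a by 1.54 and Chst15 by 0.62 on the log2 scale, with 6.87% of genes called higher and 4.21% lower. Over the same days without BMP4 the differences were 0.25, -0.41, 0.42 and -0.03, so 0 of 4 were called beside 6.35% of genes higher and 5.03% lower. Against the shared day 0 library, Pitx1 at day 7 lay on opposite sides, at -1.25 without BMP4 (22.2% of genes called higher and 10.4% lower) and 2.04 with it (17.5% and 9.47%). Cited1 differed from day 0 by 0.05 without BMP4 and 3.59 with it, Eva1a by -0.12 and 0.62, and Chst15 by -0.70 and -0.06. The PrE list, in which none of the 4 stands, was 73.2 FPKM without BMP4 and 154.4 with it at day 7. Dab2 had the largest part in this, at 9.82 and 72.6 FPKM. Gata4, Sox17 and Pth1r were also higher with BMP4, while Gata6 (12.1 and 7.00 FPKM) and Lama1 (30.1 and 23.1 FPKM) were lower. The visceral endoderm list was 30.3 and 135.7 FPKM and the placenta list 84.5 and 249 FPKM, and the part of these cells in the result was not tested.

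**Figure D1:**
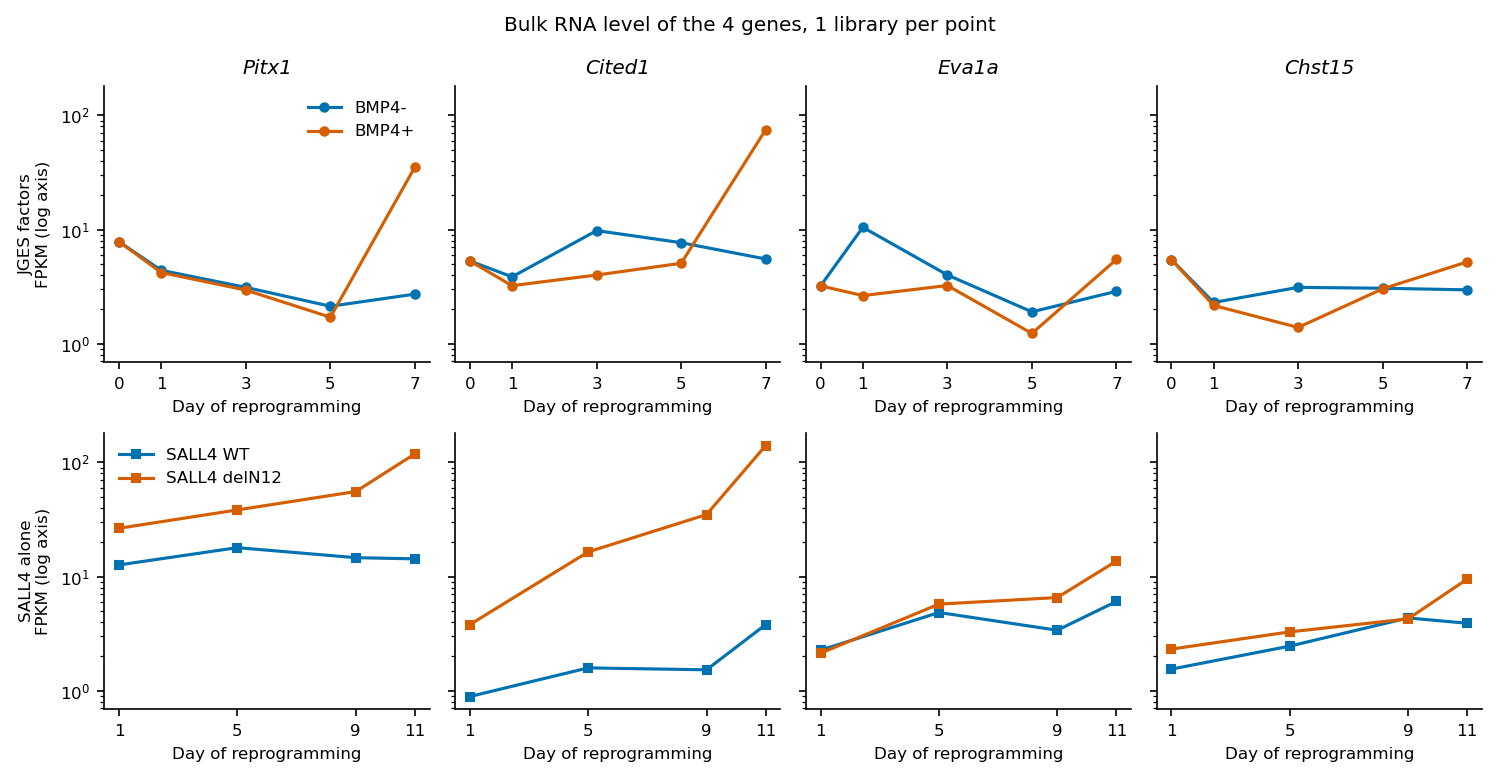
FPKM of Pitx1, Cited1, Eva1a and Chst15 on a log axis against day, in JGES cells with and without BMP4 (upper row) and in cells with SALL4 WT or delN12 alone (lower row), 1 library per point. Pitx1 and Cited1 stand above the BMP4- line at day 7 only (35.3 and 74.8 FPKM), and in the lower row delN12 lies above WT at all 4 days for both.

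Among the factor sets without added BMP4, JGESO had by far the highest level of Pitx1 and Cited1. Pitx1 was 1.80 FPKM in JGE, 2.66 in JGEO, 2.65 in JGES and 51.8 in JGESO without BMP4, and 1.13, 2.31, 34.5 and 86.9 FPKM with it. Cited1 was 0.705, 6.87, 5.38 and 102 FPKM in the same order without BMP4, and 5.35, 6.50, 73.2 and 179 FPKM with it. For both genes the 3 high libraries were JGES with BMP4 and JGESO without and with it, and these lay apart from the other 5. The share of all genes divided in this way is not given here, so nothing is read from the split. The JGES libraries also stood apart in the macrophage list, with 6.12 and 7.83 FPKM and C1qa at 0, against 50.8 to 160 FPKM in the other 6. In each difference between JGES and another set, the factors and the origin of the libraries cannot be told apart.

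Without BMP4 all 4 genes were called higher in JGESO than in JGES, as were 16.8% of genes, while 32.7% were called lower. Marker lists moved as well, from 71.3 FPKM in JGES to 374 in JGESO for PrE, 29.5 to 205 for visceral endoderm, 87.0 to 706 for fibroblasts, 6.12 to 50.8 for macrophages and 932 to 489 for pluripotent cells, and their part in the result was not tested. The differences were 3.85 for Pitx1, 4.01 for Cited1, 1.67 for Eva1a and 2.16 for Chst15 on the log2 scale. Against JGEO, the same set with no Sall4 added (28.9 FPKM of Sall4 RNA against 174), JGESO without BMP4 differed by 3.85, 3.71, 2.15 and 0.48, so that 3 of 4 were called higher beside 7.48% of genes, while 20.7% were called lower. From JGEO to JGESO the PrE list went from 46.2 to 374 FPKM, the visceral endoderm list from 1.60 to 205 and the placenta list from 32.1 to 264, and their part was not tested either. These comparisons share the JGESO library, as does the one with BMP4 that follows. In JGESO, BMP4 differed from no BMP4 by 0.74, 0.81, -0.11 and -0.13, and 0 of 4 were called beside 5.29% of genes higher and 3.52% lower.

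Eva1a and Chst15 followed another order. Eva1a was 7.09 FPKM in JGE, 1.72 in JGEO, 2.80 in JGES and 11.1 in JGESO without BMP4, and 6.58, 3.26, 5.35 and 10.2 FPKM with it. Its level in JGE was thus above that in JGES, the set with Sall4 added, by a log2 difference past the line without BMP4 (-1.09 for JGES minus JGE, beside 16.9% of genes called lower) and short of it with BMP4 (-0.26). Chst15 was 5.99, 11.5, 2.89 and 16.4 FPKM without BMP4 and 6.84, 9.0, 5.09 and 14.9 FPKM with it. The 4 libraries with Oct4 were thus the 4 highest. The share of all genes ordered in this way is not given here, so no link to Oct4 is read from it. Neither gene was called between BMP4+ and BMP4- in any factor set.

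In the sets given no Sall4, Pitx1 was low also with BMP4. In JGE its difference with BMP4 was -0.39 and in JGEO -0.15, whereas Cited1 differed by 1.90 in JGE, where 4.28% of 14714 genes were called higher and 4.78% lower, and by -0.07 in JGEO, where the shares were 2.26% and 1.95%. In JGE the endothelial list was 15.4 FPKM without and 33.3 with BMP4, and the fibroblast list 774 and 371. The part of these lists in the Cited1 difference was not tested. With BMP4, JGES lay above JGE by 4.06 for Pitx1 and 3.55 for Cited1 and differed by -0.26 for Eva1a and -0.36 for Chst15, with 12.1% of genes called higher and 11.1% lower. From JGE to JGES with BMP4 the PrE list went from 17.5 to 151 FPKM, the visceral endoderm list from 3.94 to 133, the placenta list from 43.1 to 243 and the macrophage list from 109 to 7.83, and their part in the result was not tested. The JGES pair is the same pair of libraries as at day 7 of the time course, deposited in both tables, and gave 3.28, 3.54, 0.74 and 0.65 here.

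**Figure D2:**
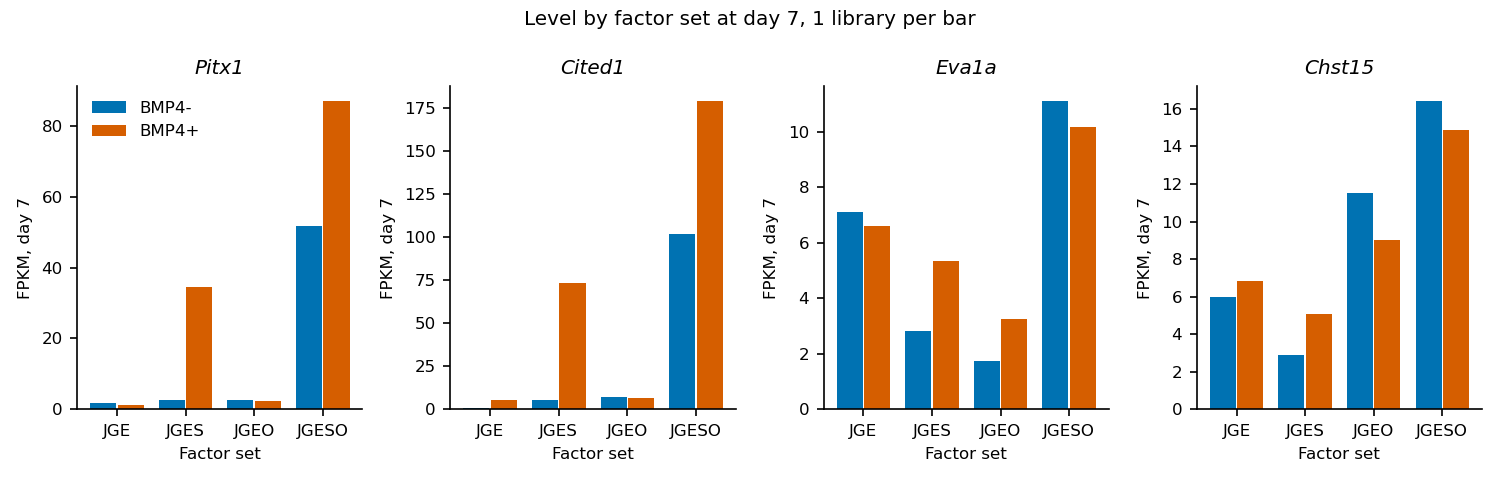
FPKM at day 7 of the 4 genes (bars from 0) in the factor sets JGE, JGES, JGEO and JGESO without and with BMP4, 1 library per bar. Pitx1 and Cited1 are high in JGES with BMP4 and in both JGESO libraries, while the bars of Chst15 are tallest in the sets with Oct4. The shares of all genes with such orders are not given.

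With SALL4 alone and no added BMP4, all 4 genes were higher with delN12 than with WT by day 11, and Pitx1 and Cited1 from day 1. Sall4 RNA was also higher with delN12, at 809, 623, 971 and 428 FPKM at days 1, 5, 9 and 11. With WT it was 549, 491, 518 and 290 FPKM. The form of SALL4 and its level cannot be told apart in these differences. Pitx1 was 12.6, 17.9, 14.6 and 14.3 FPKM at days 1, 5, 9 and 11 with WT, and 26.5, 38.3, 55.5 and 119 FPKM with delN12. The lowest delN12 library lay above the highest WT library. How many of all genes are divided in this way is not given here, so nothing is read from it. The differences were 1.01, 1.06, 1.85 and 2.97 on the log2 scale.

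Cited1 was 0.888, 1.58, 1.52 and 3.79 FPKM with WT and 3.79, 16.4, 34.9 and 140 FPKM with delN12. Its highest WT library, at day 11, and its lowest delN12 library, at day 1, were thus level. Its differences were 1.34, 2.75, 3.83 and 4.88, the largest of the 4 genes at every day. At day 1, when 2 of the 4 genes were called higher beside 4.18% of 12794 genes (5.63% lower), the PrE factors Gata4 and Sox17 were at 0.502 and 0 FPKM with delN12. The other PrE genes were not at 0 then: Gata6 was 4.09 FPKM with delN12 and 5.61 with WT, Dab2 6.32 and 11.02, and Pth1r 2.85 and 1.27. Gata4 and Sox17 reached 29.3 and 16.2 FPKM at day 11, when Cited1 had passed Pitx1.

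Eva1a was 2.26, 4.84, 3.39 and 6.05 FPKM with WT and 2.13, 5.73, 6.55 and 13.7 FPKM with delN12. Chst15 was 1.54, 2.45, 4.34 and 3.90 FPKM with WT and 2.31, 3.27, 4.25 and 9.50 FPKM with delN12. The values of WT and delN12 overlapped across days for both genes, and only the day 11 differences, 1.06 for Eva1a and 1.10 for Chst15, passed the 2-fold line. At day 11 all 4 genes were called higher beside 6.55% of 13946 genes, and at days 5 and 9 Pitx1 and Cited1 beside 4.67% and 6.09%. Genes called lower were 5.19% at day 5, 5.75% at day 9 and 6.58% at day 11, and no member was among them. Over the 4 days, taken as pairs, the mean difference was 1.72 ± 0.92 (SD) for Pitx1 and 3.2 ± 1.51 for Cited1, higher on 4 of 4 days (exact sign-flip permutation test, two-sided p = 0.125, the smallest that 4 pairs allow, and 0.5 adjusted over 8 tests). For Eva1a and Chst15 it was 0.50 ± 0.51 and 0.44 ± 0.47, higher on 3 of 4 days (p = 0.25 by the same exact test). Days are different conditions here and no replicates.

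Part of this change over time was shared with WT. From day 1 to day 11 Pitx1 differed by 0.16 with WT and 2.13 with delN12, Cited1 by 1.34 and 4.88, Eva1a by 1.11 and 2.23, and Chst15 by 0.94 and 1.66. So with WT 2 of 4 were called higher beside 11.5% of genes (8.76% lower), and with delN12 4 of 4 beside 10.4% (4.61% lower). Marker lists of other cells moved with the SALL4 form as well. The macrophage list was 158 to 332 FPKM in the WT libraries and 310, 401, 463 and 967 FPKM at days 1, 5, 9 and 11 with delN12, with 5 of its 6 genes at 1 FPKM or more at day 11 for both forms and none at 0. The placenta list was 109 to 144 FPKM with WT and 517 to 660 with delN12, and the PrE list 16.2 to 24.2 FPKM with WT and 15.1, 17.9, 60.9 and 171 with delN12. The visceral endoderm list was 1.38 to 2.36 FPKM with WT and 1.37, 12.9, 17.5 and 19.3 with delN12, and the fibroblast list at day 1 was 1014 and 2257 FPKM. The part of these cells in the result was not tested.

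In single cells all 4 genes had their highest level in the cells labelled ParE, a type the authors annotated. That label could be read as parietal endoderm or as PrE. The list of 6 PrE genes summed to 1321 counts scaled to the UMI total (CPM) in ParE of the BMP4+ sample and 967 CPM in ParE of the BMP4- sample, against 10 to 97 CPM in the other types. A parietal endoderm list stood at 518 CPM in ParE and 446 CPM in Intermediate cells of the BMP4+ sample and did not set ParE apart there, while without BMP4 it stood at 327 CPM in ParE against 27.4 to 86.4 CPM in the other types. A visceral endoderm list was 562 CPM in ParE with BMP4 (47.8 to 186 in the other types) and 271 CPM without (8.63 to 32.0). The lists thus do not settle which layer the cells are, and the label is used as deposited. The study itself describes a PrE-like cluster at day 7. It reports those cells as nearer to PrE than to parietal or visceral endoderm. The BMP4+ sample had 2372 ParE cells of 11335 and the BMP4- sample 142 of 8685. Intervals given for single-cell values are 95% and cover counting error only.

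Pitx1 had the following levels. In the BMP4+ sample it was 442 CPM in ParE (437-447), 59.9 in Placenta-like cells (55.6-64.5), 38.8 in Endothelial cells (36.8-41.0) and 10.8 in Intermediate cells (10.3-11.3). In the BMP4- sample it was 74.1 CPM in ParE (62.3-87.4), 1.23 in Intermediate (1.00-1.49), 0.270 in Pluripotent (0.116-0.531) and 0.238 in Endothelial cells (0.0288-0.858), the last from 2 UMIs. The order within a sample was clear beyond counting error down to Intermediate cells, and the intervals of Pluripotent and Endothelial cells without BMP4 overlapped.

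Cited1 had the highest level of the 4 genes in every type. In the BMP4+ sample it was 1123 CPM in ParE (1115-1131), 237 in Placenta-like (229-246), 170 in Endothelial (166-175) and 35.4 in Intermediate cells (34.5-36.3). In the BMP4- sample it was 414 CPM in ParE (385-444), 143 in Endothelial (135-151), 27.7 in Intermediate (26.6-28.9) and 15.1 in Pluripotent cells (13.8-16.6). Endothelial cells thus held Cited1 at more than 100 CPM in both samples, where Pitx1 was near 0 without BMP4.

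Eva1a and Chst15 were lower and were also highest in ParE. Eva1a was 52.9 CPM in ParE with BMP4 (51.1-54.7) and 24.9 without (18.3-33.1), against 4.04 to 6.17 and 1.58 to 2.18 CPM in the other types. Chst15 was 39.3 CPM in ParE with BMP4 (37.8-40.9) and 20.1 without (14.2-27.6), against 1.85 to 4.15 and 0.944 to 3.56 CPM in the other types. For Eva1a with BMP4 the interval of Endothelial cells overlapped those of Intermediate and of Placenta-like cells. Without BMP4 the Eva1a intervals of all types outside ParE overlapped. For Chst15 those of Endothelial and Intermediate cells overlapped in both samples.

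**Figure D3:**
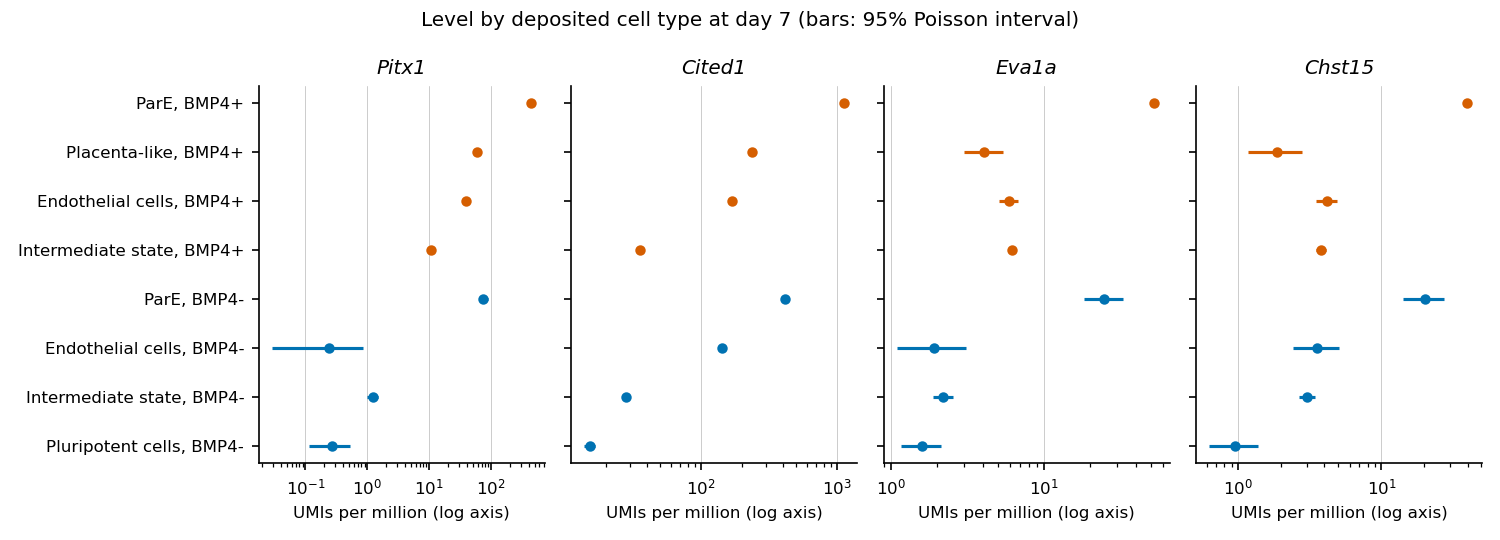
CPM of the 4 genes on a log axis by deposited cell type, in the BMP4- and the BMP4+ sample, with bars for the 95% Poisson interval of the UMI count. ParE is the highest type for every gene in both samples, and its level is higher in the BMP4+ sample for all 4.

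The level in ParE over that in all other cells of the same BMP4+ sample was 24.2 for Pitx1 (23.4-25), 16.1 for Cited1 (15.9-16.4), 8.82 for Eva1a (8.26-9.42) and 10.6 for Chst15 (9.75-11.5). In the BMP4- sample it was 80.2 (62.1-104), 12.7 (11.7-13.7), 12.4 (8.84-16.9) and 7.89 (5.48-11.1). All 4 genes were past 2-fold in both, beside 8.65% of 8604 genes higher with BMP4 and 9.36% of 7575 without. The types were made from these cells' genes, so this is a description of the annotation and no test. Among all genes ranked by this difference in the BMP4+ sample, Pitx1 was 13, Cited1 26, Chst15 69 and Eva1a 74. ParE held 87.7%, 82.7%, 72.3% and 75.8% of the UMIs of Pitx1, Cited1, Eva1a and Chst15 with BMP4, and 22.8% of all UMIs. Without BMP4 it held 55.6%, 16.5%, 16.2% and 10.95%, and 1.53% of all UMIs, so most UMIs of Cited1, Eva1a and Chst15 there lay outside ParE.

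Within ParE the BMP4+ sample was above the BMP4- sample by 5.97 times for Pitx1 (5.06-7.10), 2.71 for Cited1 (2.53-2.92), 2.13 for Eva1a (1.59-2.90) and 1.96 for Chst15 (1.42-2.77). On the log2(CPM + 1) scale 3 of 4 were called higher beside 25.9% of 8070 genes, over a median shift of all genes of 0.56, so the share of called genes was high in this pair of samples. ParE cells had a median of 23772.5 UMIs with BMP4 and 11562 without, and the pluripotent list was 898 CPM in the ParE cells without BMP4 and 7316 CPM in Pluripotent cells of that sample. The part of these values in the result was not tested.

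Pitx1 also differed outside ParE. In Endothelial cells it was 164 times higher with BMP4 (45.2-1352), a log2 difference of 5.01 that ranked 4 of 7886 genes, and 24.2% of genes were called higher there. PrE genes were higher in those cells too, Lama1 by 4.66 times (3.38-6.61), Gata6 by 3.35 (2.60-4.39), Sox17 by 2.96 (2.43-3.65) and Gata4 by 10.1 (1.72-409), and the PrE list stood at 34.4 CPM without and 97.0 CPM with BMP4, while Pth1r was 1.03 times as high. The cells under this label also differed in the markers of their type: without BMP4 the pluripotent list was 314 CPM and the endothelial list 263, and with BMP4 15.6 and 596 CPM. The 1357 Pitx1 UMIs of the BMP4+ Endothelial cells lay in 10.9% of them, and no doublets were removed. The part of these values in the result was not tested. In Intermediate cells it was 8.79 times higher (7.19-10.8), where 27.8% of 8294 genes were called higher. Gata4, Sox17, Klf4 and Lama1 were 7.57, 4.65, 4.10 and 2.41 times as high there and Pth1r and Foxa2 0.394 and 0.359 times, and the fibroblast list was 149 CPM without and 775 CPM with BMP4. The part of these values was not tested either. Cited1 in the same cells was 1.19 times (1.12-1.27) and 1.28 times (1.22-1.34) as high, Eva1a 3.09 (1.86-5.50) and 2.83 times (2.42-3.34), and Chst15 1.2 (0.782-1.79) and 1.25 times (1.07-1.45). The median shift of all genes was 0.52 on the log2 scale in both cell types, and Cited1 (0.25 and 0.34) and Chst15 (0.17 and 0.25) lay below it.

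The share of cells with a UMI was compared after thinning each cell to 4000 UMIs, which left out no cell. With BMP4 57.7% of ParE cells held Pitx1 (55.7-59.7), 88.7% Cited1 (87.3-89.9), 17.2% Eva1a (15.7-18.8) and 14.4% Chst15 (13.0-15.9). Before thinning these were 74.9%, 97.3%, 60.3% and 53.6%. In Intermediate cells of the same sample, with a median of 19594 UMIs, the thinned shares were 2.2%, 9.54%, 2.04% and 1.19%. The part of free RNA in these shares was not tested, and the lowest type of each gene is given beside the others. Pitx1 and Cited1 were lowest in Intermediate cells and were found in 6.26% and 28.7% of Endothelial and 8.31% and 46.8% of Placenta-like cells. Eva1a and Chst15 were lowest in Placenta-like cells, at 1.04% (0.284-2.64) and 0.519% (0.0630-1.86), with 1.86% and 1.58% in Endothelial cells, so outside ParE their shares lay within 2.04%. In ParE cells without BMP4 the thinned shares were 16.9% (11.1-24.1), 58.5% (49.9-66.7), 8.45% and 7.04%. Each share comes from a single random draw, and the mean over all possible draws was 57.5%, 88.8%, 17.9% and 14.3% with BMP4 and 16.2%, 56.0%, 8.14% and 6.63% without.

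ParE cells with BMP4 varied among themselves in all 4 genes. Pitx1 had a median of 8 UMIs per cell with quartiles of 0 and 18 and a maximum of 92, and Cited1 a median of 26 with quartiles of 14 and 40 and a maximum of 162. Eva1a and Chst15 each had a median of 1 UMI and a maximum of 12. After thinning, the variance over the mean was 2.73 for Pitx1 and 3.51 for Cited1, against 1.12 for Eva1a and 1.09 for Chst15, where 1 is what counting alone gives. This measure rises with the mean, and its excess over 1 divided by the mean was 0.92 for Pitx1, 0.52 for Cited1, 0.57 for Eva1a and 0.54 for Chst15. The tenth of cells with most UMIs of the gene held 34.9% of the UMIs of Pitx1, 25.7% of those of Cited1, 37.6% of those of Eva1a and 39.3% of those of Chst15. This share also rises as counts per cell fall, so it sets no order between genes of unlike level.

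Of these 2372 cells, 604 held a UMI of all 4 genes, 1005 of 3, 605 of 2, 145 of 1 and 13 of none. Of the 142 ParE cells without BMP4, 1 held all 4 and 18 none. Cells of the samples differed in depth, and after thinning, in a second random draw, 36, 394, 1126, 720 and 96 of the BMP4+ cells held 4, 3, 2, 1 and none of the genes, and 0, 4, 23, 62 and 53 of the BMP4- cells. Across thinned BMP4+ ParE cells the Spearman correlation of Pitx1 with Cited1 was 0.34, and across the 142 BMP4- cells 0.32, as a description of cells from a single library each.

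Some BMP4+ ParE cells had no Pitx1 UMI at all, and other genes also differed in level between these cells and the rest. The 595 cells without a Pitx1 UMI had a median of 24416 UMIs and the 1777 cells with one 23585. The part of depth in the result was not tested. Cited1 was 712 CPM (699-726) in the former and 1261 CPM (1250-1271) in the latter. Krt8, a keratin of simple epithelia, was 180 and 420 CPM, and Pth1r, the receptor of parathyroid hormone-related protein, 168 and 290 CPM.

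The other PrE genes differed less or the other way. Gata6 was 95.8 CPM in cells without and 67.1 CPM in cells with Pitx1, and Sox17 287 and 254, while for Gata4, at 75.9 and 79.1, the intervals overlapped. The laminin gene Lama1 was 256 and 199 CPM and the endocytic adaptor Dab2 462 and 424 CPM. Foxa2 was 69.5 and 59.1 CPM and Klf4 110 and 120 CPM. Eva1a was 62.3 and 49.7 CPM, so it was lower in the cells with Pitx1, and Chst15 was 39.9 and 39.2 CPM with overlapping intervals. In the BMP4- sample 107 ParE cells without and 35 with a Pitx1 UMI showed Cited1 at 306 and 730 CPM, Pth1r at 96.4 and 229 CPM and Gata6 at 96.4 and 39.6 CPM, in the same directions. For Sox17 (153 and 160 CPM), Klf4 (78.0 and 70.9), Foxa2 (28.4 and 54.2), Gata4 (61.0 and 56.3) and Chst15 (19.1 and 22.9) the intervals of the BMP4- sets overlapped. They also overlapped for Lama1 (189 and 179 CPM), Dab2 (356 and 346) and Eva1a (28.4 and 14.6). No direction could be read for any of these genes there. Cells were divided by a count of 1 gene here, so both sets share a library and are no replicates.

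**Figure D4:**
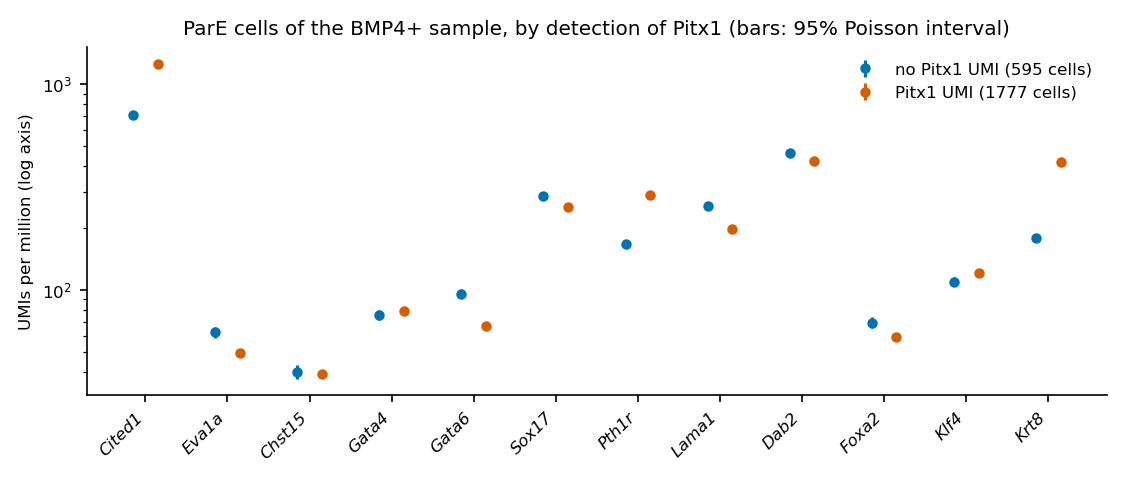
CPM of 12 genes in ParE cells of the BMP4+ sample without (595 cells) and with (1777 cells) a Pitx1 UMI. Cited1, Krt8 and Pth1r stand higher in the cells with Pitx1, while Gata6, Lama1 and Eva1a stand lower.

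Cited1, Eva1a and Chst15 had an open promoter in all 9 ATAC-seq lists, and Pitx1 in 4 (MEFs, WT at days 5 and 11 and delN12 at day 11). A peak within 2 kb of a start was thus present in 31 of the 36 pairs of gene and list, and 63.0% to 70.9% of all genes had one in a given list. The site over the first Cited1 start, chrX:102251886-102252382, was the only open site of that locus in all 9 lists, and 57.3% of genes had a promoter peak in every list. Its MACS score, which grows with the evidence for a peak and also with depth, was 427 in MEFs, 56.4, 170, 252 and 272 at days 1, 5, 9 and 11 with WT and 132, 231, 380 and 375 with delN12. The scores of delN12 were above those of WT at each day and MEFs, whose RNA was not analysed here, had the highest. SALL4 WT had a peak there with a score of 67.2, which 79.8% of its list passed, delN12 had none, and neither had H3K27ac, a mark of active promoters and enhancers.

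Pitx1 had no H3K27ac and no SALL4 peak within 20 kb in either form, nor within 50 kb. Of 21755 genes, 15.4% had no peak of either mark and form within 20 kb and 11.3% none within 50 kb. Of its 8 open sites 0 were in all 9 lists and 6 were in a single one. The site 11.9 kb from the start in the direction of transcription, just past the 3′ end, scored 118, 171 and 70.2 with WT at days 5, 9 and 11 and 92.8 and 58.6 with delN12 at days 1 and 5, and was not called in MEFs or with delN12 at days 9 and 11, when Pitx1 RNA with delN12 was highest. A second site, chr13:55831352-55831678, covers the second start of the gene and scored 102 and 65.1 with WT at days 5 and 11 and 75.2 with delN12 at day 11.

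At Eva1a several sites differed between the SALL4 forms. The site 11 kb upstream was open in MEFs with a score of 1048, was not called with WT at day 1 and scored 182, 87.0 and 391 after, and scored 231, 232, 412 and 460 with delN12. H3K27ac and SALL4 had peaks over it only with delN12, with scores of 538 and 505, which 5.25% and 1.60% of their lists passed. The site 5 kb upstream scored 729 in MEFs and 255, 77.4, 132 and 74.5 with delN12, was in no WT list, and had a SALL4 peak of 117 only with delN12. Of all merged ATAC-seq sites, 0.856% were open in all 4 delN12 lists and in no WT list.

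Past the 3′ end of Eva1a, the site 70.7 kb from the start was not called in MEFs and scored 59.3, 147, 98.5 and 123 with delN12 and 63.6 with WT at day 5 only, with a delN12 SALL4 peak of 125. The site at 56.8 kb, chr6:82097640-82098067, had a SALL4 peak of 367 and an H3K27ac peak of 60.0, again only with delN12. The promoter carried H3K27ac in both, with scores of 102 for WT and 197 for delN12. In all, the Eva1a locus with 20 kb on each side held 3 SALL4 peaks with WT and 8 with delN12, and 1 and 5 H3K27ac peaks.

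Chst15 showed the other order for SALL4. Its locus held 7 SALL4 peaks with WT, scored 54.6 to 282, and 3 with delN12, scored 50.8 to 124, while H3K27ac peaks were 1 and 4. The promoter had a SALL4 peak of 92.9 with WT and none with delN12, a pattern that 16.5% of genes showed, and H3K27ac of 126 with WT and 413 with delN12. The intron site 74.2 kb from the start was not called in MEFs and was in all 8 SALL4 lists, with scores of 163, 334, 358 and 311 with WT and 250, 249, 143 and 118 with delN12. Of all merged sites 0.791% had that pattern. It held SALL4 peaks of 264 with WT and 84.8 with delN12, and an H3K27ac peak of 115 only with delN12.

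**Figure D5:**
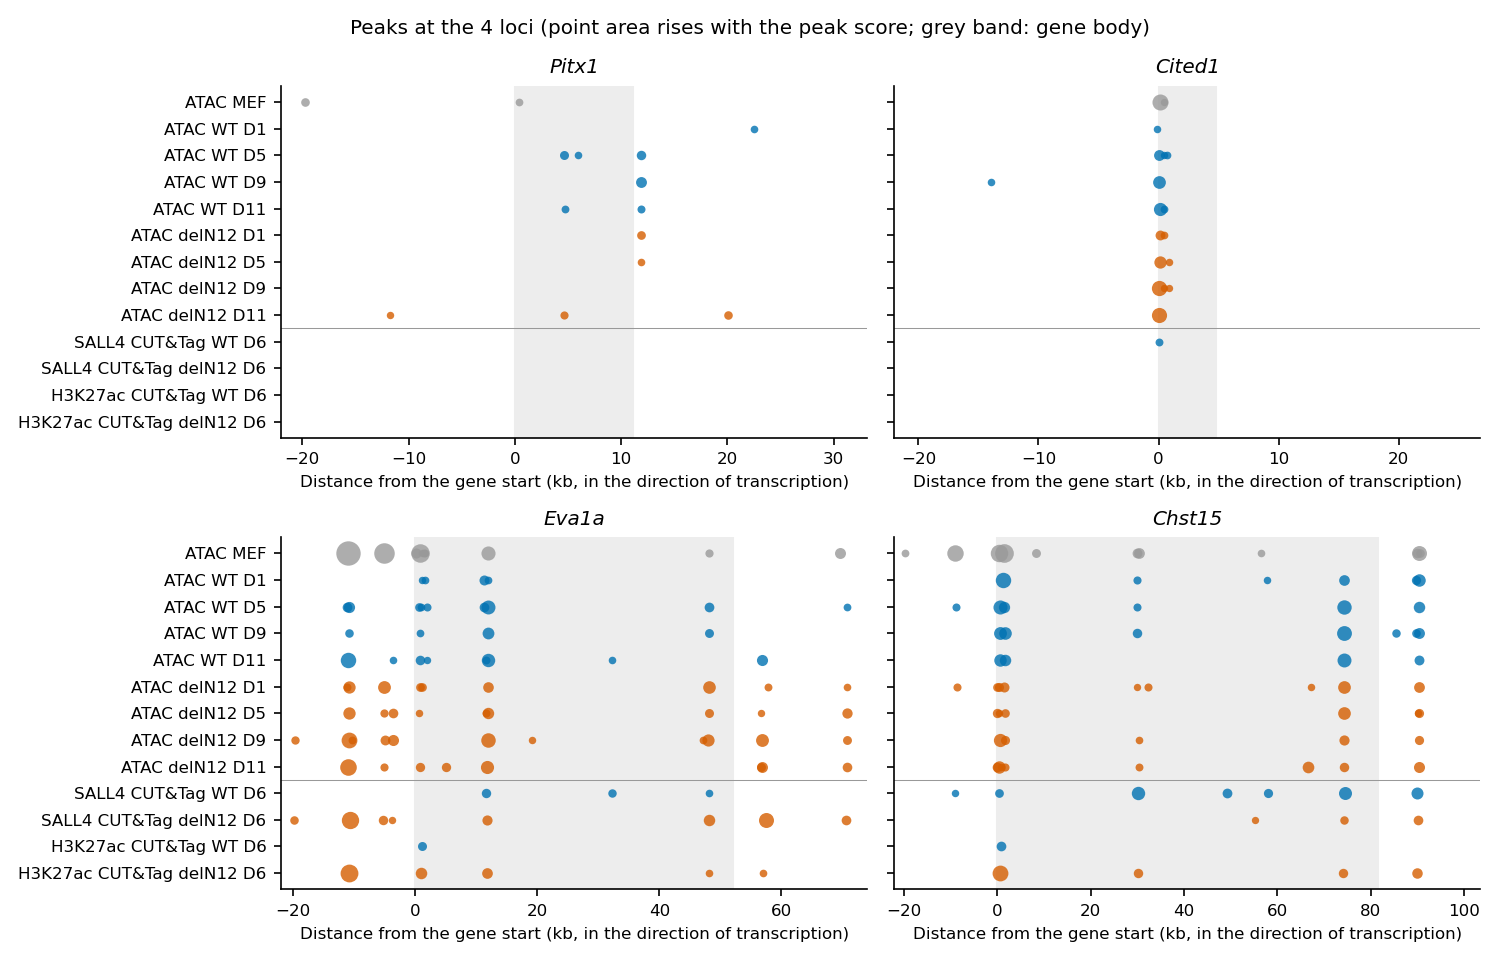
Peaks of the 13 lists at the 4 loci against the distance in kb from the gene start in the direction of transcription, with the point area set by MACS score and the gene body in grey. Pitx1 has no CUT&Tag peak, Eva1a has more SALL4 peaks with delN12 (8 against 3) and Chst15 more with WT (7 against 3).

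Over the 4 loci, 7 of 9 H3K27ac peaks of delN12 had no overlap with a WT peak, against 61.5% in the whole list, and 0 of 2 in the other direction (11.2%). For SALL4 it was 7 of 11 for WT (48.9%) and 7 of 11 for delN12 (47.9%). How many loci of all genes differ as much in peak number between the forms as Eva1a or Chst15 is not given here. The delN12 H3K27ac list held 45599 peaks and the WT list 19841, and the peaks were called on merged replicates with a lowest score of 50. A missing peak therefore means only that none was called at that depth.

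Genes that act with the members were counted from lists. At day 7 of JGES reprogramming 10.3% of all genes tested were called higher with BMP4 and 13.8% lower, with a median difference of -0.14. Of 8 genes of the CITED group and its TFAP2 and CBP/p300 partners with enough RNA, Cited1 was called higher with BMP4 and Tfap2c, a factor CITED proteins co-activate, lower (13.6 and 1.89 FPKM). Of 7 genes of the EVA1 and autophagy list 0 were called. Of 21 genes of chondroitin sulfate synthesis, 5 were called higher (Chst11, Chst14, Csgalnact1, Papss1 and Papss2) and 0 lower, with a median difference of 0.47, and Chst15 was not among them. Of 8 core proteins that carry such chains or bind them 5 were called higher (Vcan, Cspg4, Dcn, Bgn and Cd44), and these are genes that fibroblasts also express. The hindlimb and pituitary list, which holds genes that act with Pitx1 or downstream of it there, had 0 of 3 higher and Hoxc9 and Hoxc10 lower. Of 8 other PrE genes of the study 3 were called higher (Sox17, Pth1r and Dab2), in a list chosen on these samples.

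With delN12 against WT at day 11 the same lists gave other counts, where 6.55% of genes were called higher and 6.58% lower with a median difference of 0.01. Chst15 was the only one of 23 chondroitin sulfate synthesis genes called higher, with Chst13 (15.6 and 2.66 FPKM) and Xylt1 lower, and Eva1a the only one of 8 in its list. Cited1 and Tfap2c were the 2 called higher of 9 in theirs, so Tfap2c lay on the other side here than with BMP4. Of 8 other PrE genes 6 were called higher with a median difference of 2.92. In JGESO against JGES without BMP4, 9 of 21 chondroitin sulfate synthesis genes were called higher and 2 lower, beside 16.8% and 32.7% of all genes and a median difference of -0.21.

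In ParE against the other cells of the BMP4+ sample, the relatives Cited2 and Eva1b went the other way, and 8.65% of all genes were higher in ParE and 11.5% lower. Cited2 was 96.4 CPM in ParE and 288 CPM in the other cells, and Eva1b 47.2 and 129 CPM. Chst15 was the only one of 10 chondroitin sulfate synthesis genes past 2-fold, while 4 of 6 core proteins (Vcan, Dcn, Bgn and Sdc1) were lower there. All 8 other PrE genes were higher. In the BMP4- sample the shares were 9.36% and 6.84%. Eva1b was lower there too, at 56.6 CPM in ParE and 150 CPM in the other cells, a log2 difference of -1.39. By type it stood at 52.9 to 190 CPM outside ParE. Cited2 was not called there, and its 156 CPM in ParE lay within the range of the other types, 45.3 to 209 CPM. Chst15 was the only one of 8 synthesis genes that was higher there. Of 5 core proteins 2 were higher there (Cd44 and Srgn, the core protein of secretory granules, at 236 and 5.15 CPM) and 2 lower (Bgn and Sdc1).

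The genes most like each member over the 17 libraries were found by Pearson correlation of log2(FPKM + 1) among 12350 genes, as a description. For Pitx1 they were Hsd17b11 (0.92), Tmed3 (0.91) and Rab15 (0.91), and for Cited1 Hkdc1 (0.88), Rhox6 (0.86) and Sox17 (0.86). For Eva1a they were Igf2r (0.78), Bmp6 (0.77) and Higd1c (0.76), and for Chst15 Adora1 (0.75), Vkorc1 (0.75) and Epas1 (0.74). All but Hsd17b11 had their highest level with delN12 at day 11, as the 4 members did. No member was among the nearest genes of another: Pitx1 and Cited1 correlated at 0.58 over 17 libraries (0.24 by Spearman rank), 0.97 within the 8 SALL4 libraries and 0.81 within the 9 JGES libraries. Eva1a and Chst15 correlated at 0.51 (0.44 by rank), 0.87 and 0.02. The highest correlation of members over 17 libraries was that of Cited1 with Chst15, at 0.73 (0.57 by rank), with 0.80 and 0.62 within the experiments. The libraries of an experiment share medium and factors and are not independent points.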

How the data were processed

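Per the methods of the study, the authors trimmed bulk RNA-seq reads with Trim Galore 0.6.4, aligned them to mm10 with HISAT2 2.2.1 and deposited FPKM from StringTie 2.2.1. ATAC-seq and CUT&Tag reads were aligned with Bowtie2 2.4.5 and filtered with SAMtools 1.16.1, and the authors deposited MACS 1.4.2 peak lists, whose score column is used here. Fragments under 50 bp were used for ATAC-seq, and CUT&Tag replicates were merged before calling. Single-cell counts of UMIs were deposited after STARsolo and a filter on UMIs, with the authors' cell types in the column names. No doublet calls are given in the sources used here and none were made. Of 30769 columns, 10749 match no sample and were not used.

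From these, differences of log2(FPKM + 1) were computed for genes at an FPKM of 1 or more in either library, and called at 1. UMI counts were summed per sample and type to CPM, with exact Poisson intervals, exact binomial (Clopper-Pearson) intervals for shares and exact conditional intervals for ratios. Genes at 10 CPM or more in either group entered the counts on log2(CPM + 1). With 1 sample per condition no test between conditions was run, and the only test is an exact sign-flip test of differences paired by day, added after the values were seen. A promoter was 2 kb either side of a start and a locus the gene with 20 kb on each side. The FPKM call, the Poisson interval and the thinning were tested on simulated data, and the other steps were not. The text names the 4 members, list genes with the largest differences and the 3 genes most like each member. The members, lists and rules were chosen with earlier results of these data known. Python 3.11.15, pandas 2.3.3, numpy 2.4.6, scipy 1.17.1, pysam 0.24.0, samtools 1.23.1 and matplotlib 3.10.9 were used. Alternatives were another pseudocount, FPKM minimum, library scaling, thinning depth, peak score and window. Results of 1 gene list are not reported here.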

Additional observations from a re-analysis of the deposited data

Results flagged for a closer look

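The effect of BMP4 on Cited1 in JGES cells went opposite ways at different days. At day 3 the BMP4+ library was lower, by -1.11 on the log2(FPKM + 1) scale (9.78 FPKM without and 3.99 with BMP4), and at day 7 it was higher, by 3.54 (5.52 and 74.8 FPKM). The pluripotent list also moved at day 3, at 314 FPKM without and 80.1 with BMP4, as did the fibroblast list, at 83.3 and 280. Their part was not tested. Each day had 1 library per arm, so the difference between the days was not tested.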

How the results depend on the processing

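Of 124 values of the members' differences recomputed under another pseudocount, library scaling, cell set or copy of a library, 123 stayed on the same side of the 2-fold line. The exception was Chst15 at day 3 of JGES reprogramming. It was -0.79 with a pseudocount of 1 and -1.11 with a pseudocount of 0.1, past the line. A smaller pseudocount widens the difference of low genes. No difference past the line reversed. Changes of sign among differences short of the line were not counted. The number of genes called, given here with the FPKM minimum of 1 and then of 5, was 1287 and 583 at day 1, 2279 and 1183 at day 3, 3279 and 1931 at day 5 and 3691 and 2101 at day 7 of JGES with and without BMP4. It was 1333 and 838 for JGE, 3785 and 2169 for JGES in the table of 8, 621 and 281 for JGEO, and 1191 and 769 for JGESO. For delN12 against WT it was 1255 and 804 at day 1, 1318 and 858 at day 5, 1596 and 1058 at day 9 and 1832 and 1161 at day 11, since fewer genes were tested. The SALL4 peaks at the 4 loci, 11 for each form, came to 6 for WT and 7 for delN12 at a score of 100 or more, and to 16 for WT and 17 for delN12 with 50 kb on each side. Thinned to 2000 UMIs instead of 4000, the share of BMP4+ ParE cells with a UMI was 45.4% for Pitx1, 77.7% for Cited1, 9.91% for Eva1a and 8.01% for Chst15 in the draw made, and 45.7%, 77.7%, 9.66% and 7.58% over all possible draws. In the 142 BMP4- ParE cells it was 4.23%, 38.7%, 7.04% and 4.23% in the draw made and 11.01%, 41.6%, 4.30% and 3.41% over all draws, so single draws of so few cells are imprecise. Read depth was not given in the sources used here for bulk RNA, ATAC-seq or CUT&Tag, so a missing peak or a low FPKM cannot be set against it. With 1 sample for each condition there was no pairing by replicate, and no sample could be left out. The pairs by day given above, added after the values were seen, gave an exact two-sided p of 0.625 to 1 for BMP4+ against BMP4- in JGES cells. The correlation of Pitx1 with Cited1 over 17 libraries was 0.58 by Pearson and 0.24 by Spearman rank.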
